A study of Mus musculus with 12 samples.

Results

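The genes described here encode the enzymes that break down the branched-chain amino acids leucine, isoleucine and valine. All 10 genes on the list (Bcat2, Bckdha, Bckdhb, Dbt, Bckdk, Ppm1k, Ivd, Acadsb, Hibadh and Pcca) were found, each as 1 row, among the 23474 genes of the expression table. The rule is a list of gene symbols and uses no measured value, but the list was drawn up with earlier results of these data known. Epididymal white adipose tissue (eWAT) of male C57BL/6J mice aged 17 weeks had been sequenced as mRNA, with 3 libraries in each of 4 groups. One group was fed a normal diet (ND) and one a high-fat diet (HFD), from 5 weeks of age and for 12 weeks. A further group received the HFD with an ethanol extract of green tea at 0.25% by weight (GT), and the last the HFD with Taeeumjowuitang (TJ), a Korean herbal medicine, at 3% by weight. HFD, GT and TJ mice thus shared the high-fat diet, and no group received GT or TJ on the normal diet. The study's methods give 3 randomly selected mice for HFD and 3 for TJ. For ND and GT the sources used here do not say whether each library was a separate mouse, so that p-values for these groups measure the spread between libraries.

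Branched-chain amino acids are degraded in mitochondria. Bcat2 first moves the amino group to 2-oxoglutarate, and the branched-chain 2-oxo acid dehydrogenase then makes an acyl-CoA in an irreversible step. That complex is built from E1 alpha and beta subunits (Bckdha and Bckdhb), the E2 transacylase (Dbt) and an E3 subunit, Dld, that it shares with other dehydrogenases. The kinase Bckdk phosphorylates E1 and switches the complex off, and the phosphatase Ppm1k removes the phosphate. Behind it the routes separate into leucine (Ivd, isovaleryl-CoA dehydrogenase), isoleucine and other short branched acyl-CoAs (Acadsb) and valine (Hibadh, 3-hydroxyisobutyrate dehydrogenase), and the propionyl-CoA from isoleucine and valine is carboxylated by Pcca with Pccb. Adipocytes are known to use this pathway as a source of acetyl-CoA and propionyl-CoA for lipid synthesis, and its expression in fat is known to be low in obesity.

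Expression was given in FPKM, fragments scaled to transcript length and to the mapped fragments of the library, so that levels can also be set side by side between genes. The estimated depth was 10.0M to 15.8M fragments in ND libraries, 14.4M to 18.5M in HFD, 15.7M to 19.8M in GT and 15.9M to 17.3M in TJ. A gene was called a DEG when limma's adjusted p-value over all tested genes was under 0.05 and its fold change at least 1.5, on log2(FPKM + 1). ND replicate 1 stood apart from the other libraries. The summed FPKM of 6 testis germ cell markers was 95626 in it and 0.685 to 2641 in the other 11, and that of 5 epididymis markers was 11458 against 0.0388 to 1290. Adipoq, a defining adipocyte gene, stood at 202 FPKM there, against 1826 and 2781 in the other ND libraries. HFD replicate 2 also held epididymis markers (1290 FPKM summed), and ND replicate 3 and HFD replicate 1 held germ cell markers (2641 and 1888). Results for HFD against ND are therefore given with and without ND replicate 1, and the plots of fold change show the fit without it.

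RefSeq promoter windows on GRCm38.p6, each of 300 bases and mostly ahead of a start site, were at hand for 9 of the genes (12 windows). Dbt was not in that table. The windows of Bckdhb and Pcca, the genes that were highest and among the highest in TJ against HFD, and of the kinase gene Bckdk, which was not called in any comparison, are shown to place these genes beside one another. Capitals mark GGGCGG, the core of a GC box, on either strand.

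Bckdhb, chr9:83924887-83925186, plus strand: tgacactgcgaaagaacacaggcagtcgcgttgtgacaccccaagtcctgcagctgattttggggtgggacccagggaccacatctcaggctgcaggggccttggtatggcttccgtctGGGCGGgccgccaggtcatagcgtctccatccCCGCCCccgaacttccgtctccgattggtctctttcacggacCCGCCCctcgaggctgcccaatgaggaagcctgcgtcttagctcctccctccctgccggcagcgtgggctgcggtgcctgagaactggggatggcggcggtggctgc
Pcca, chr14:122534078-122534377, plus strand: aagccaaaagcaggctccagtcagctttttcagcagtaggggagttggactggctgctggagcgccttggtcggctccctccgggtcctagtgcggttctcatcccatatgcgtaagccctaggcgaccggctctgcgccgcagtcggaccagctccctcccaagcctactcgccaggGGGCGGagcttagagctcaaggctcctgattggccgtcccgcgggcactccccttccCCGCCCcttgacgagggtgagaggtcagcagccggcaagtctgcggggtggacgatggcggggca
Bckdk, chr7:127903823-127904122, plus strand: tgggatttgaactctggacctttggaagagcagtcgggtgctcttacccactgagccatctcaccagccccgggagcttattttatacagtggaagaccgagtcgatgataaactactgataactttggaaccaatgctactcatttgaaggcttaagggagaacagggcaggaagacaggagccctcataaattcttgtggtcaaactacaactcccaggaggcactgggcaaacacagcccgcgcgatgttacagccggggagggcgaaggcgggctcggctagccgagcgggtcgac

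The Bckdhb window held 3 GGGCGG matches, that of Pcca 2 and that of Bckdk 0. Windows of Bckdha, Bcat2 and Ivd, which were called in TJ against HFD, held 0 matches, and that of Ppm1k, which was not called, held 2. Of the 12 windows, 5 held the motif (1 each of Bckdhb, Ppm1k, Acadsb, Hibadh and Pcca), where 35.7% of all 32851 promoter windows hold it. The other window of Bckdhb and that of Pcca held 0 matches. AAGGTCA, a motif bound by nuclear receptors, was found in 0 of the 12 windows and in 4.72% of all windows, both strands searched. The direct repeat motif of these receptors with 1 base between its copies (DR1) was likewise in 0 of the 12, and in 0.0396% of all windows. CACCC, the box that Krüppel-like factors such as Klf15 bind, was found in 8 of the 12 windows, and 57.5% of all windows hold it. These matches describe the letters in the windows and no binding was measured.

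All 10 genes were expressed in eWAT. In the HFD group the mean levels ran from 2.38 FPKM for Ppm1k to 100.3 for Hibadh, and Bckdk (53.4) stood well above Ppm1k in every library. The plot of FPKM by library shows the values behind each comparison.

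**Figure D1:**
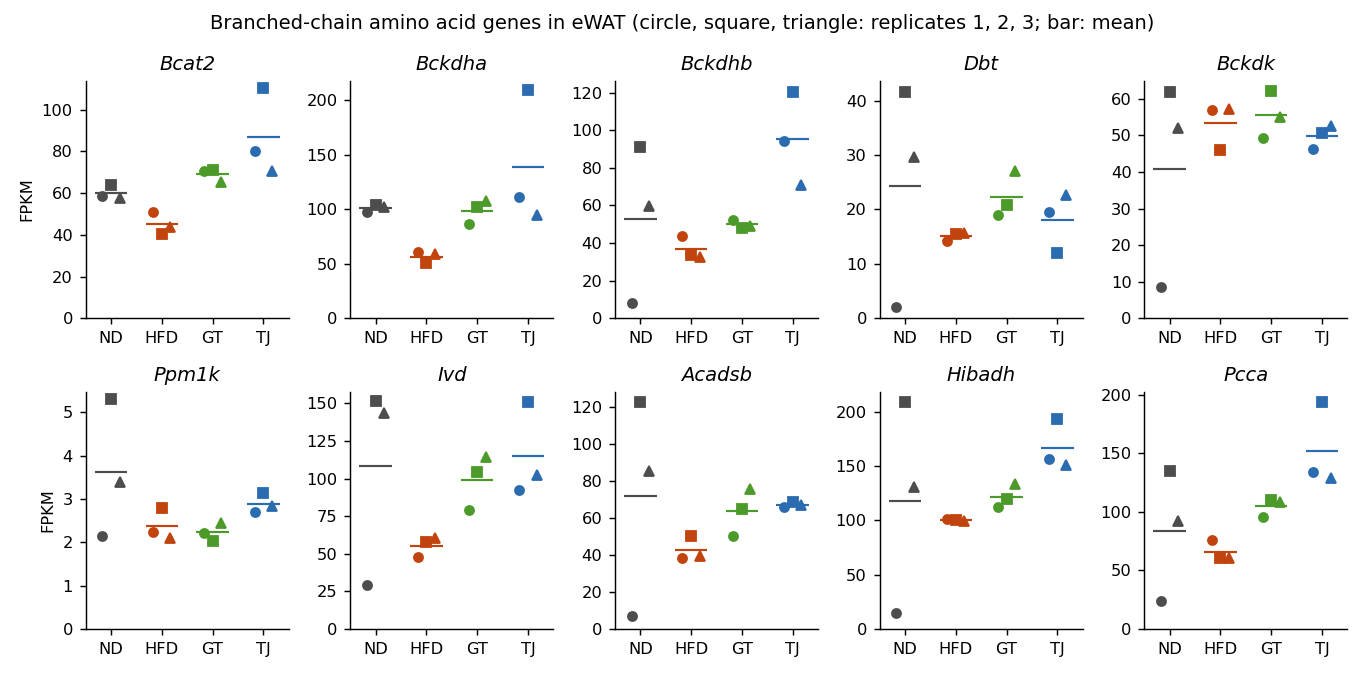
FPKM (linear axis from 0, one scale per gene) of the 10 genes in each of the 12 libraries, grouped as ND, HFD, GT and TJ. Symbols are libraries and bars are group means. ND replicate 1 (circle) is lowest of the 12 libraries for 7 of the 10 genes, and the 3 TJ libraries lie above the 3 HFD libraries for 7 genes.

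TJ against HFD asks what the herbal medicine changed on the high-fat diet. Of the 10 genes, 7 were significantly higher in TJ than in HFD mice and 0 lower. Among all 12807 genes tested, 7.41% were called higher and 11.1% lower. The same 7 genes had TJ and HFD libraries that did not overlap, as did 20.1% of all genes in that direction. The median log2 fold change of the 10 genes was 0.82, and that of all tested genes was -0.14. The 7 were the aminotransferase, both E1 subunits and the 4 enzymes further down, while the E2 subunit, the kinase and the phosphatase were not called. The study itself had reported breakdown of valine, leucine and isoleucine among the significant pathways of genes upregulated by TJ. Both results rest on the same series and are not independent.

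Bcat2, whose product opens the pathway, measured 51.0, 40.5 and 43.7 FPKM in the HFD libraries and 80.3, 110.3 and 70.4 in the TJ libraries. The groups did not overlap, and the log2 fold change was 0.91 ± 0.20 (SE, adjusted p = 0.029).

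Both subunits of E1, the decarboxylase that commits the carbon skeleton to breakdown, were upregulated. Bckdha was at 60.8, 50.3 and 58.5 FPKM in HFD and at 111, 209.5 and 94.9 in TJ, where replicate 2 was far above the other two. Its log2 fold change was 1.19 ± 0.29 (adjusted p = 0.037). Bckdhb showed the largest increase of the 10 genes. It rose from 43.7, 33.8 and 32.7 FPKM in HFD to 94.3, 121 and 71.1 in TJ, a log2 fold change of 1.33 ± 0.22 (adjusted p = 0.024).

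Dbt, the E2 core of the same complex, was not called. Its HFD libraries were at 14.3, 15.5 and 15.7 FPKM and its TJ libraries at 19.5, 12.0 and 22.6. TJ replicate 2, the highest of the 12 libraries for Bckdha, Bckdhb and Bcat2, was the lowest TJ library for Dbt and lay below all HFD libraries. The log2 fold change of 0.19 had a 95% interval of -0.34 to 0.73 (adjusted p = 0.53). Without that library the TJ and HFD libraries of Dbt no longer overlapped and its log2 fold change was 0.44 (adjusted p = 0.042), under the minimum fold change. With another library left out it ran from 0.01 to 0.21.

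The 4 listed enzymes further down were upregulated, whereas 13 of the 20 other pathway genes were not called. Ivd of the leucine route was at 48.0, 58.0 and 60.1 FPKM in HFD and 92.3, 151 and 102 in TJ, a log2 fold change of 1.01 ± 0.21 (adjusted p = 0.028). Acadsb stood at 38.2, 50.3 and 39.7 in HFD and was closely grouped in TJ at 66.1, 68.6 and 67.1, with 0.65 ± 0.14 (adjusted p = 0.031). For both, every TJ library was above every HFD library.

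Hibadh of the valine route was nearly constant in HFD, at 101, 100.4 and 99.0 FPKM, and reached 157, 193 and 151 in TJ. Its log2 fold change was 0.72 ± 0.14 (adjusted p = 0.027). Pcca, the biotin-carrying subunit of propionyl-CoA carboxylase, rose from 75.8, 60.3 and 60.7 to 134, 194 and 129, with 1.18 ± 0.20 (adjusted p = 0.024). Replicate 2 was the highest TJ library for both genes. Removal of the trend with transcript length raised the log2 fold change of Hibadh to 1.11 and that of Acadsb to 1.05.

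The genes that set the phosphorylation of the complex were not called. Bckdk was at 56.9, 46.0 and 57.3 FPKM in HFD and at 46.2, 50.5 and 52.5 in TJ. Its log2 fold change was -0.10 (95% interval -0.43 to 0.24, adjusted p = 0.61), and it took the other sign after median-of-ratios scaling (0.03) and after removal of the trend with transcript length (0.08). Ppm1k, at 2.24, 2.79 and 2.11 in HFD and 2.70, 3.15 and 2.83 in TJ, had a log2 fold change of 0.21 (-0.19 to 0.61, adjusted p = 0.36), which was 0.50 after quantile normalization and 0.57 after removal of the length trend. The groups overlapped for both genes.

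The calls depended on the 3 HFD libraries and on TJ replicate 1. With any 1 of the HFD libraries or TJ replicate 1 left out, 0 of the 10 genes and 0 of all genes were called by limma, although 7 of the 10 kept an unadjusted p under 0.05 each time. Without TJ replicate 2 or 3 the same 7 were called. Beside them, 6.19% of all genes were called higher without replicate 2, and 1245 of 12873 without replicate 3. A fit over all 12 libraries, which takes in the spread of ND replicate 1, called 0 of the 10 (3 at an unadjusted p under 0.05). With no filter on low values 3 were called, where 198 of 20343 genes were called higher. With the replicate block 3 were called as well, beside 429 of 12807 genes called higher.

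**Figure D2:**
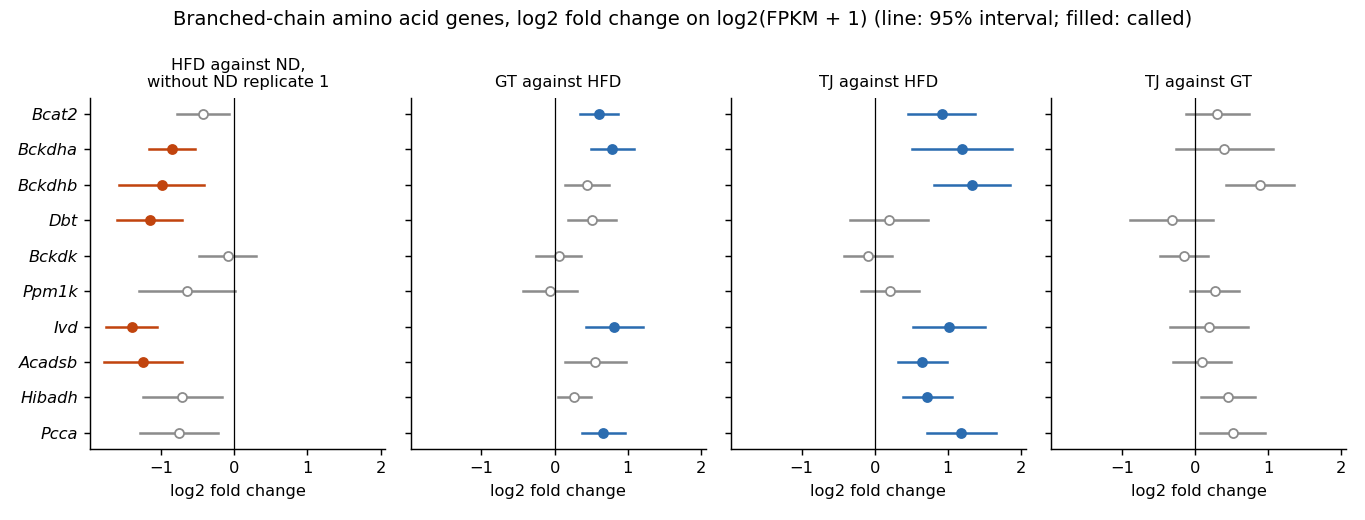
Log2 fold change on log2(FPKM + 1) of the 10 genes (rows) in 4 comparisons (panels), with 95% intervals as lines; filled points are DEGs, blue higher and red lower in the first-named group. Bckdhb is highest in TJ against HFD at 1.33, Ivd lowest in HFD against ND without ND replicate 1 at -1.41, and Bckdk is not called in any panel.

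Markers of the cells in eWAT moved along with these genes. Of 8 adipocyte markers, 6 were upregulated in TJ against HFD (among them Adipoq, 1.46, and Cidec, 0.70). The other two were not called, Pnpla2 at 0.64 (adjusted p = 0.13) and Lep, the gene of the hormone leptin, at -0.96 (adjusted p = 0.11). In the same comparison 5 of 8 macrophage markers were downregulated (among them Cd68, -2.10, and Adgre1, -2.51). The summed FPKM of the adipocyte markers ran from 17409 to 19849 in HFD and from 30034 to 60793 in TJ. That of the macrophage markers ran from 3050 to 4313 in HFD and from 727 to 2247 in TJ. Fabp4 made up most of the adipocyte sum and Lyz2 most of the macrophage sum. The summed FPKM of the 10 genes ran from 458 to 492 in HFD and from 764 to 1112 in TJ. Fewer cells of a type and less RNA per cell cannot be told apart in such bulk tissue, and the part of the cell markers in these results was not tested. Of 4 stromal markers, Pdgfra and Col1a1 were downregulated. No member of the endothelial (4) or mesothelial (3) markers tested was called. Of 6 germ cell markers 0 were called by limma, with 4 at an unadjusted p under 0.05. Their sum ran from 27.3 to 1888 FPKM in HFD and from 0.685 to 9.10 in TJ. The sum of the lymphocyte markers was low, at 1.03 to 1.54 in HFD and 2.64 to 5.27 in TJ.

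TJ replicate 2 was at one end of both marker sums. It had the highest adipocyte sum (60793, of which Fabp4 made up 48299). Its macrophage sum was the lowest of the 9 libraries on the high-fat diet (727, of which Lyz2 made up 587). Among these libraries Adipoq, Fabp4, Lipe, Pnpla2 and Pck1 were also highest in TJ replicate 2. Plin1 (703) and Cidec (3371) were higher in GT replicate 3 (825 and 3630), and Lep (292) was lowest in TJ replicate 2. TJ replicate 2 also had the highest sum of the 10 genes (1112). Without it the TJ to HFD ratio of mean FPKM was 1.82 instead of 2.45 for Bckdha, 2.25 instead of 2.59 for Bckdhb and 2.0 instead of 2.32 for Pcca.

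**Figure D3:**
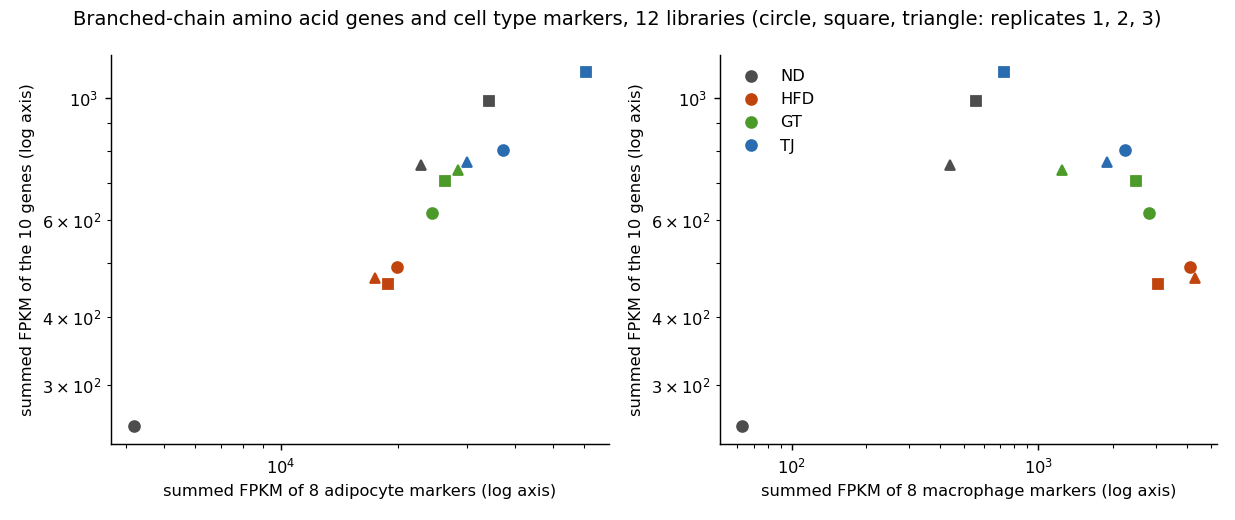
Summed FPKM of the 10 genes (y, log axis) against the summed FPKM of 8 adipocyte markers (left) and 8 macrophage markers (right; x, log axes), one point per library, coloured by group. TJ replicate 2 is at the top of both panels (1112), the 3 HFD libraries lie between 458 and 492, and ND replicate 1 is at the lower left of both (253). Fabp4 makes up most of the adipocyte sum and Lyz2 most of the macrophage sum.

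GT against HFD asks the same of green tea extract, with the same HFD libraries as controls. Of the 10 genes, 4 were significantly higher in the GT group than in the HFD group (Bcat2, Bckdha, Ivd and Pcca) and 0 lower, where 1.83% of 12766 tested genes were called higher and 1.81% lower. GT and HFD libraries did not overlap for 8 genes, all with GT higher, as for 12.3% of all genes. These 8 also had an unadjusted p under 0.05. The median log2 fold change of the 10 genes was 0.53, and that of all tested genes was -0.12.

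Bcat2 was at 70.8, 71.2 and 65.2 FPKM in the GT libraries, all above the highest HFD library at 51.0, with a log2 fold change of 0.61 ± 0.11 (adjusted p = 0.040). Bckdha reached 86.3, 102 and 108, a log2 fold change of 0.79 ± 0.12 (adjusted p = 0.038). Its GT mean of 98.7 ± 11.1 (SD, n = 3) stood beside 101 ± 3.02 in the ND group, a pair that was not tested.

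Ivd was at 78.8, 104 and 115 FPKM in GT, with the largest difference from HFD of the 10 genes, 0.82 ± 0.16 (adjusted p = 0.048). Pcca was at 95.4, 109.8 and 108, with 0.67 ± 0.12 (adjusted p = 0.042). In both genes the lowest GT library exceeded the highest HFD library.

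Dbt was higher in every GT library (19.0, 20.8 and 27.1 FPKM) than in any HFD library, and its log2 fold change of 0.51 ± 0.14 did not pass the adjustment (adjusted p = 0.076). Bckdhb, at 52.4, 48.2 and 49.3 FPKM, had 0.44 ± 0.13 (adjusted p = 0.086). Acadsb, at 50.4, 64.9 and 75.8, had 0.56 ± 0.18 (adjusted p = 0.10), and Hibadh, at 112, 119 and 133, had 0.27 ± 0.10 (adjusted p = 0.13). None of these 4 was called. After removal of the length trend Bckdhb was called (0.59, adjusted p = 0.028) and Hibadh had 0.42.

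Bckdk (49.4, 62.2 and 54.9 FPKM in GT) and Ppm1k (2.23, 2.03 and 2.44) overlapped the HFD libraries, with log2 fold changes of 0.06 (95% interval -0.26 to 0.37) and -0.06 (-0.43 to 0.31). The sign for Ppm1k turned under median-of-ratios scaling (0.02), quantile normalization (0.19) and removal of the length trend (0.09).

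These calls rested on single libraries and on the settings of the fit. The count was 0 without HFD replicate 1, 2 or 3 and without GT replicate 2 or 3, with 6 or 7 genes at an unadjusted p under 0.05, and it was 6 without GT replicate 1, when Dbt and Acadsb were called as well, beside 2.92% of all genes called higher. It was also 0 with no filter on low values, no mean-variance trend, the replicate block or all 12 libraries in the fit, with 2 to 8 genes at an unadjusted p under 0.05. Of the adipocyte markers 3 (Plin1, Lipe and Pck1) were upregulated in GT, and 0 of 8 macrophage markers were called, with 7 at an unadjusted p under 0.05. Of 4 stromal markers Pdgfra was downregulated (-0.85, adjusted p = 0.030), and 3 had an unadjusted p under 0.05. The adipocyte sum was 24438 to 28504 FPKM and the macrophage sum 1243 to 2823 in GT, both outside the range of the HFD libraries, and their part in the result was not tested.

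The pair TJ and GT was also compared directly, at unequal doses (3% and 0.25%). By limma, 0 of the 10 genes were called, with 3 at an unadjusted p under 0.05, and 0.148% of 12187 tested genes were called in either direction. TJ libraries lay above all GT libraries for Bckdhb, Ppm1k, Hibadh and Pcca, as for 19.5% of all genes. The difference was largest for Bckdhb, with a log2 fold change of 0.89 (95% interval 0.42 to 1.35, adjusted p = 0.10). Hibadh had 0.45 (0.08 to 0.82, adjusted p = 0.16) and Pcca 0.51 (0.07 to 0.96, adjusted p = 0.17). Intervals of the other 7 genes included 0. They ran from -0.89 to 0.25 for Dbt, the only gene besides Bckdk with a lower mean in TJ than in GT, and from -0.26 to 1.07 for Bckdha.

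HFD against ND asks what the diet did. With all 6 libraries 0 of the 10 genes were called by limma (1, Bckdha, at an unadjusted p under 0.05), and 1.77% of 14430 tested genes were called in either direction. ND replicate 1 was far below the other ND libraries in 7 genes. Hibadh, for example, was at 15.1, 209 and 130.4 FPKM in ND replicates 1, 2 and 3, and Acadsb at 7.14, 123 and 85.3. Bcat2 (58.6, 64.0 and 57.6) and Bckdha (97.8, 104 and 102) did not show this gap, and for Ppm1k (2.15, 5.31 and 3.40) the other two ND libraries lay farther apart. For these 2 genes the 3 HFD libraries lay below all ND libraries, as did those of 5.89% of all genes, with log2 fold changes of -0.41 (adjusted p = 0.50) and -0.83 (adjusted p = 0.25).

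Without ND replicate 1, 5 genes were significantly lower in the HFD group than in the ND group (Bckdha, Bckdhb, Dbt, Ivd and Acadsb) and 0 higher, where 4.34% of 13661 tested genes were called lower and 11.0% higher. HFD libraries lay below both ND libraries for 9 genes, Bckdk being the exception, and for 19.2% of all genes. With the replicate number as a block, only Ivd of the 10 stayed called, where 66 of 13661 genes were called lower. Only Ivd stayed called after removal of the trend with transcript length as well, beside 400 of 13562 genes. With median-of-ratios scaling 4 were called, beside 590 of 13661 genes.

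Ivd had the largest decrease. It was at 152 and 144 FPKM in ND replicates 2 and 3 against at most 60.1 in HFD, a log2 fold change of -1.41 ± 0.14 (adjusted p = 0.0039). Acadsb was lower by the same measure at -1.25 ± 0.21 (adjusted p = 0.018), as was Dbt, at 41.6 and 29.6 FPKM in ND, with -1.16 ± 0.18 (adjusted p = 0.013).

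Bckdhb was at 90.9 and 59.8 FPKM in ND, with a log2 fold change of -0.997 ± 0.231 in HFD (adjusted p = 0.045), and Bckdha had -0.86 ± 0.13 (adjusted p = 0.012). Not called were Bcat2 (-0.43), Hibadh (-0.71), Pcca (-0.76), Ppm1k (-0.65) and Bckdk (-0.09). Among the markers, 6 of 8 for adipocytes were lower and Lep higher in HFD in the same fit, and 7 of 8 for macrophages were higher. Of 4 mesothelial markers Msln, Upk3b and Lrrn4 were lower (-1.44, -1.57 and -1.51), and of 4 stromal markers Col1a1 was higher (2.13). With all 6 libraries, 0 of 8 adipocyte, 0 of 4 mesothelial and 0 of 4 stromal markers were called by limma. Of 8 macrophage markers 3 were called higher (Cd68, Itgax and Trem2), beside 1.77% of all genes in either direction. The median log2 fold change of the adipocyte markers was then 0.044, against -0.932 without ND replicate 1. The part of these markers was not tested.

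Set in order, the group means of 8 genes were lowest in HFD once ND replicate 1 was left out, those of Bckdk and Ppm1k being lowest in TJ and in GT. For Ivd the order was 148 ± 5.53 FPKM in ND (SD, n = 2), 115 ± 31.2 in TJ, 99.2 ± 18.4 in GT and 55.4 ± 6.49 in HFD (n = 3 each), where TJ overlapped both ND and GT. For Bckdhb TJ came first (95.3 ± 24.7), then ND (75.3 ± 22.0), GT (49.9 ± 2.18) and HFD (36.8 ± 6.08), and TJ and ND overlapped. Dbt was highest in ND (35.6 ± 8.53) and stood at 22.3 ± 4.24 in GT, 18.0 ± 5.49 in TJ and 15.2 ± 0.773 in HFD, with TJ overlapping both of its neighbours.

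Since Bckdk switches the complex off and Ppm1k switches it on, the 2 genes were also read as a ratio within each library. Log2(Ppm1k/Bckdk) was -4.67, -4.04 and -4.77 in HFD, -4.47, -4.94 and -4.49 in GT and -4.10, -4.00 and -4.21 in TJ. All TJ libraries lay above all GT libraries, a difference of 0.53 (exact two-sided permutation p = 0.1, the smallest that 3 against 3 allow). TJ and HFD overlapped, with a difference of 0.39 (exact permutation p = 0.3), as did GT and HFD, with -0.14 (exact permutation p = 0.8).

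In ND the ratio was -1.97, -3.54 and -3.94, the highest being ND replicate 1. All HFD libraries lay below all ND libraries. The HFD mean was lower by -1.34 (exact permutation p = 0.1, the smallest possible). Without ND replicate 1 it was lower by -0.75 (exact permutation p = 0.2, the smallest that 2 against 3 allow). Ppm1k had the lowest FPKM of the 10 genes in all libraries but ND replicate 1, where Dbt was lower.

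**Figure D4:**
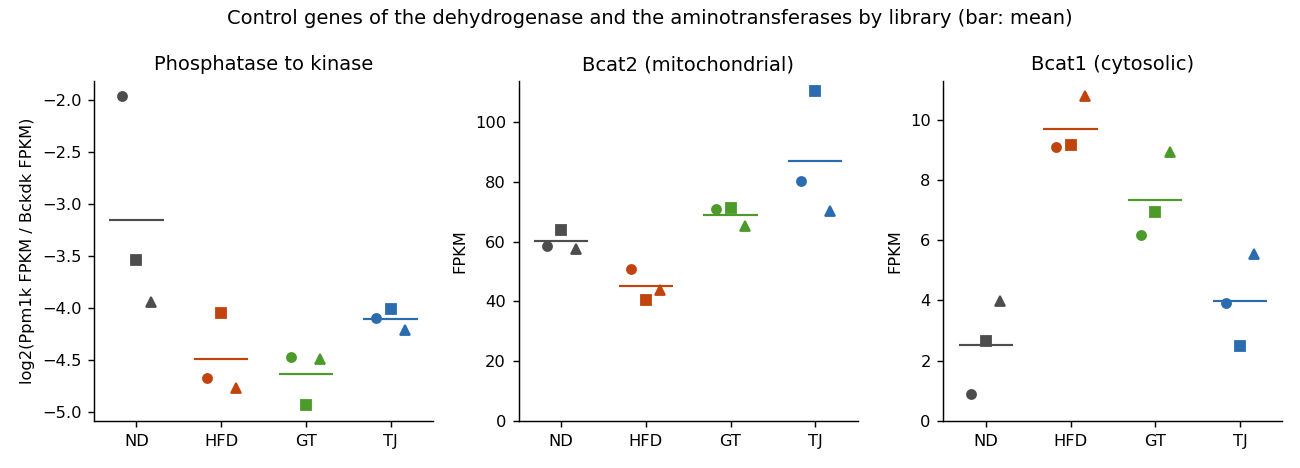
Left, log2 of the Ppm1k to Bckdk FPKM ratio in each library by group; middle and right, FPKM of the aminotransferase genes Bcat2 and Bcat1 (axes from 0), with bars for group means. The ratio lies between -4.21 and -4.00 in TJ and between -4.94 and -4.47 in GT, while Bcat1 is highest in HFD (9.09 to 10.8) where Bcat2 is lowest (40.5 to 51.0).

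The other 20 genes of the pathway were taken as a separate list. In TJ against HFD, 6 were upregulated and 1 downregulated, where 7.41% of all genes tested were called higher and 11.1% lower. Of the 20, 0 were called by limma without HFD replicate 1, 2 or 3 or TJ replicate 1 (11 or 12 at an unadjusted p under 0.05). The count was also 0 with no filter on low values or with all 12 libraries in the fit. It was 2 with the replicate block, beside 1198 of 12807 genes in either direction. Upregulated were Acat1 (0.81), the thiolase of the last step of isoleucine and ketone body breakdown, Pccb (0.77), the partner of Pcca, Echs1 (0.76), Hibch (0.74) of the valine route, Mcee (0.71), the methylmalonyl-CoA epimerase, and Mccc2 (0.59) of the leucine route. The median over the 20 genes was 0.35. Hsd17b10, of the isoleucine route, had the highest log2 fold change, 0.86, and was not called (adjusted p = 0.057).

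The gene that fell was Bcat1, the cytosolic aminotransferase. It was at 9.09, 9.17 and 10.8 FPKM in HFD and at 3.93, 2.49 and 5.55 in TJ, a log2 fold change of -1.14 ± 0.24 (adjusted p = 0.028). Its mitochondrial counterpart Bcat2 moved the other way in the same libraries. In GT Bcat1 was at 6.17, 6.93 and 8.92 FPKM, below all HFD libraries, with -0.37 (adjusted p = 0.15).

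In GT against HFD, 1 of the 20 genes was called, Pccb (0.67, adjusted p = 0.050), and 12 had an unadjusted p under 0.05, where 1.83% of all genes were called higher. The count was 0 without HFD replicate 1, 2 or 3 or GT replicate 2 or 3. It was also 0 with no filter, no trend, the replicate block or all 12 libraries. Without GT replicate 1 it was 4, where 2.92% of all genes were called higher. The log2 fold change of Pccb was the highest of the list, and that of Bcat1 the lowest. In TJ against GT 0 of the 20 were called by limma, with 2 at an unadjusted p under 0.05, Bcat1 (-0.77) and Mcee (0.54), which were also the lowest and the highest of the list.

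In HFD against ND, 0 of the 20 were called with all libraries (2 at an unadjusted p under 0.05). Without ND replicate 1, 8 were lower in HFD (Mccc1, Mccc2, Acat1, Echs1, Hsd17b10, Hibch, Aldh6a1 and Pccb) and 2 higher (Bcat1 and Hadha), where 4.34% of all genes were called lower and 11.0% higher. The lowest was Aldh6a1, the methylmalonate semialdehyde dehydrogenase of the valine route, at -1.56 (adjusted p = 0.012), with 319 and 239 FPKM in ND and 76.6, 117 and 89.7 in HFD. Bcat1 had the highest value, 1.32 (adjusted p = 0.014), from 2.66 and 3.99 FPKM in ND. In that fit 1 of the 20 was called with the replicate block, beside 501 of 13661 genes in either direction. After removal of the length trend 3 were called, beside 1498 of 13562, and with median-of-ratios scaling 5, beside 1837 of 13661.

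**Figure D5:**
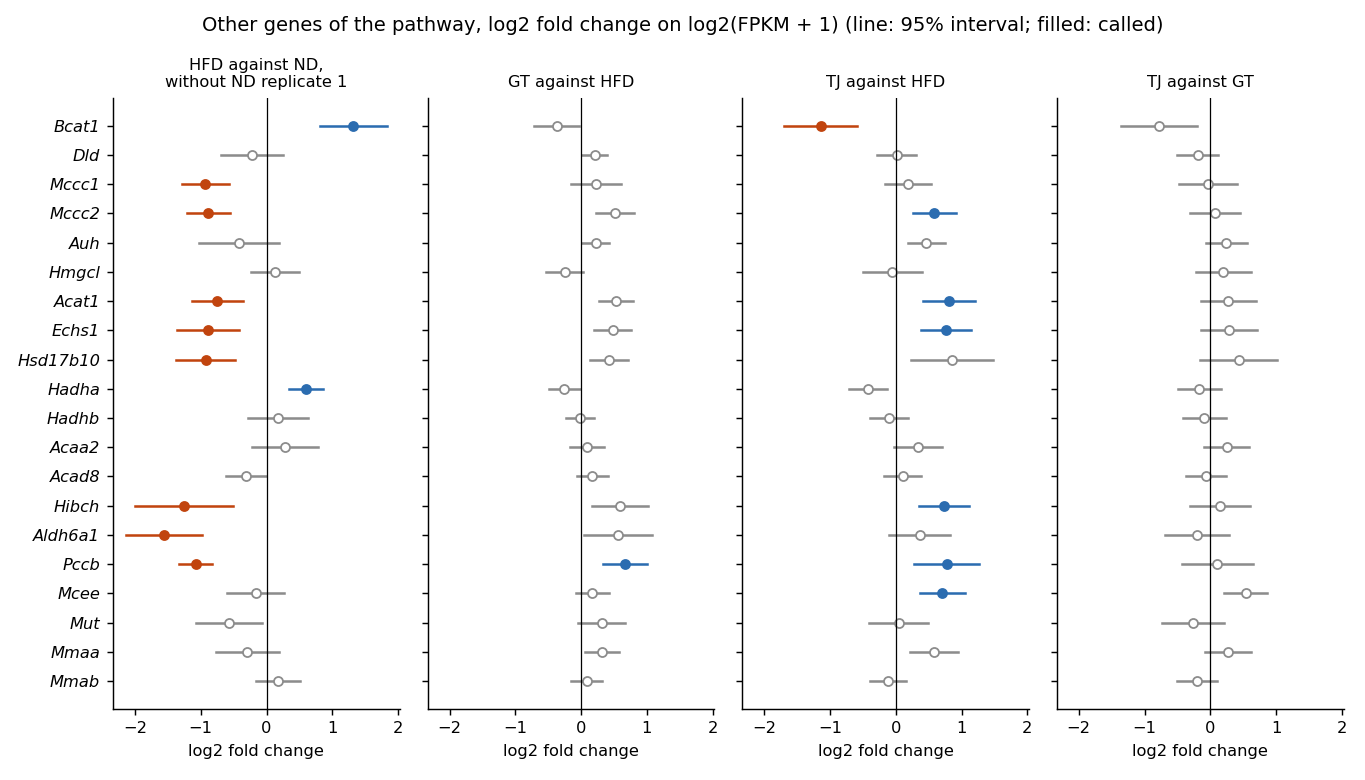
Log2 fold change on log2(FPKM + 1) of the 20 other pathway genes (rows) in 4 comparisons (panels), with 95% intervals as lines; filled points are DEGs, blue higher and red lower in the first-named group. Bcat1 is the top row, at 1.32 in HFD against ND without ND replicate 1 and at -1.14 in TJ against HFD.

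The pyruvate dehydrogenase complex is built on the same plan and shares Dld, and its 10 genes served as a comparison. In TJ against HFD its median log2 fold change was -0.28. Pdk2, one of its kinases, was upregulated (1.24) and Pdk1 downregulated (-0.60), and the subunit genes Pdha1 (-0.05) and Pdhb (0.02) were not called. These calls, 1 of 10 higher and 1 of 10 lower, stood beside 7.41% and 11.1% of all genes. Dld, used by both complexes, had 0.01 (95% interval -0.28 to 0.31). In GT against HFD 0 of these 10 were called by limma, with 2 at an unadjusted p under 0.05, beside 1.83% of all genes called higher and 1.81% lower. In HFD against ND with all libraries, 0 of these 10 were called by limma, beside 1.77% of all genes in either direction. Pdha1 was then at 0.54 (adjusted p = 0.79) and Pdk2 at -1.36 (adjusted p = 0.24). Without ND replicate 1, Pdha1 (-0.73, adjusted p = 0.037) and Pdk2 (-1.71, adjusted p = 0.0098) were called lower and 0 higher, beside 4.34% and 11.0% of all genes.

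Of the genes for transport, Slc25a44, the mitochondrial carrier of branched-chain amino acids, had -0.21 in TJ against HFD (adjusted p = 0.30), and Slc3a2, the heavy chain of the amino acid exchanger at the cell surface, had 0.09 (adjusted p = 0.64). Slc7a5 was not analysed here. Among the transcription regulators Klf15, known to drive Bcat2 and other genes of amino acid breakdown, had 0.64 (adjusted p = 0.056) and Pparg, the regulator of adipocyte differentiation, 0.64 (adjusted p = 0.055). Mlxipl, the carbohydrate response factor, had 0.45 (adjusted p = 0.099). Ppargc1a stood at 0.479 to 0.910 FPKM in TJ, under the level needed to be tested.

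Across the 12 libraries the genes most like the mean z-score of the 10 were Phyh (Pearson's r = 0.994), Pygl (0.991), Amy1 (0.985), Rpap3 (0.985) and Rbp4 (0.984), out of 13925 genes ranked. The 12 points share the group differences and the low values of ND replicate 1. Without that library the leading genes were Pygl (0.987), Slc9b2 (0.978), Art3 (0.977), Amy1 (0.976) and Car1 (0.973) over 11 libraries, and Pygl and Amy1 were on both lists. Among the 10 themselves, the median r of a gene with the other 9 over these 11 libraries was highest for Bckdha and Hibadh (0.80 each) and lowest for Bckdk (0.08).

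The genes lie on 6 chromosomes of GRCm38. Bcat2 (7:45570153-45589711), Bckdha (7:25629946-25658981), Bckdk (7:127904082-127910221) and Acadsb (7:131410601-131448944) are on chromosome 7. Hibadh and Ppm1k are on chromosome 6, Bckdhb on 9, Dbt on 3, Ivd on 2 and Pcca on 14. By whole gene spans, introns included, Bckdha overlaps B3gnt8, Acadsb Fgfr2, Pcca Ggact and Bcat2 0610005C13Rik on the opposite strand, among others. On the same strand Dbt overlaps Gm43651, Acadsb Gm44982, Hibadh Gm44434 and Gm24355, and Pcca Gm49260. Whether exons are shared was not examined. Strand was not stated for the counting, so fragments from any exons shared between strands cannot be told apart.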

How the data were processed

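Epididymal fat of mice in 4 diet groups had been sequenced as paired-end mRNA libraries made with the TruSeq RNA kit, 3 per group. Per the labels and the study's methods, the authors mapped reads with STAR and computed the deposited FPKM values with Cufflinks 2.1.1 on Ensembl release 72 annotation, with noncoding regions masked and multiread and fragment bias correction. The submitters' processing notes give STAR 2.4.0. The methods name the human genome, whereas all identifiers in the table are mouse identifiers. Read counts were not used here. Symbols for 22671 of the 23474 identifiers, and GRCm38 coordinates, were taken from the GENCODE annotation (mouse release 21).

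Here, limma 3.58.1 in R 4.3.3 (lmFit, eBayes with a trend) was run on log2(FPKM + 1) over the 6 libraries compared, for genes averaging 1 FPKM or more in them. This scale understates the change of low genes. DEGs had a Benjamini-Hochberg adjusted p under 0.05 over all tested genes and a fold change of at least 1.5. The procedure was tested on simulated data. The Ppm1k to Bckdk ratio was compared with an exact two-sided permutation test (scipy 1.17.1). Depth was estimated from genes with a single annotated transcript of at least 1500 nt. The most frequent low value of FPKM times transcript length was read as 1 fragment, so no counting intervals were derived. Deviations from the group means correlated between ND and HFD libraries of the same number (r = 0.55, 0.34 and 0.12), which by a rule of over 0.1 for every pair was taken as pairing by number, although HFD replicate 3 correlated more closely with an ND library of another number (r = 0.63). The rule was not met in the other comparisons. The pairing comes from these values, since the labels name no shared litter or day. The main fits did not use the pairing. Libraries were grouped by the labels. Alternatives were pseudocounts of 0.1 and 0.01, other filters, scalings and weights, a replicate block, removal of a length trend (loess, span 0.5) and each library left out. The genes and lists were chosen with earlier results of these data known. Named are the 10 genes, genes of the lists where a list is described, with the highest, lowest and called ones of the pathway list, and the 5 genes most like the 10.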

Additional observations from a re-analysis of the deposited data

How the results depend on the processing

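The 7 genes called in TJ against HFD were also called with pseudocounts of 0.1 and 0.01, a minimum of 5 FPKM (Ppm1k was not tested there), median-of-ratios scaling, quantile normalization, no trend and the length trend removed, and 6 of them with array weights. No filter left 3 of the 10 genes, 0 of the 20 other pathway genes and 382 of all genes. The fit over all 12 libraries left 0, 0 and 0. Leaving out 1 library gave 0 to 7 of the 10, 0 to 8 of the 20 and 0 to 3412 of all genes; each of the 3 HFD libraries or TJ replicate 1 left out gave 0 in all 3. The replicate block, here a shared number only, gave 3, 2 and 1198. The split of higher and lower calls over all genes was 949 to 1417, and 1229 to 1177 with median-of-ratios scaling, 1543 to 1151 with quantile normalization and 1470 to 959 without the length trend. Bckdk turned to 0.031 with median-of-ratios scaling and 0.084 without the length trend.

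In GT against HFD, no filter gave 0 of the 10, 0 of the 20 and 5 of all genes, all 12 libraries 0, 0 and 1, the replicate block 0, 0 and 5, no trend 0, 0 and 67, and array weights 5, 2 and 1589. The 20 gave 3 with median-of-ratios scaling, 2 with quantile normalization, 3 without the length trend and 2 with no minimum fold change. Leaving out 1 library gave 0 to 6, 0 to 4 and 4 to 1107. The split over all genes was 233 to 231, and 367 to 154, 405 to 162 and 468 to 141 with those scalings in the same order. Ppm1k turned to 0.020, 0.19 and 0.090 under them. With 1 library left out Bckdk ran from -0.046 to 0.13, Ppm1k from -0.12 to 0.027 and the ratio from -0.28 to 0.085.

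In TJ against GT, array weights gave 1 (Bckdhb), 1 (Bcat1) and 1659. Over all genes the count of 18 became 11 and 8 with pseudocounts of 0.1 and 0.01, 6 with no filter, 6 with a minimum of 5 FPKM, 29 with quantile normalization, 2 with all 12 libraries and 4 to 81 with 1 library left out; the replicate block gave 18. Ivd turned to -0.15 with array weights and -0.014 without TJ replicate 2 (up to 0.34 with another left out), and Acadsb to -0.016 with quantile normalization and -0.060 without GT replicate 1 (up to 0.23).

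In HFD against ND, where the numbers met the rule for pairing, the replicate block left 0 of 255 calls over all genes and changed no call among the 10 or the 20. Array weights gave 5, 8 and 6057, and all 12 libraries 0, 2 and 1136. Pseudocounts of 0.1 and 0.01 gave 126 and 111 calls over all genes. Leaving out 1 library gave 0 to 5, 0 to 10 and 0 to 2098, the highest without ND replicate 1. Settings added after seeing the data, all without that library, gave 4, 5 and 1837 with median-of-ratios scaling, 1, 1 and 501 with the replicate block, and 1, 3 and 1498 without the length trend. Bckdhb turned to -0.18 with median-of-ratios scaling, -0.15 with quantile normalization, -0.79 with array weights and -0.997 without ND replicate 1 (up to 0.68 with another left out). Dbt turned to -0.14, -0.12 and -0.91 under the same 3, to -0.11 without the length trend and to -1.16 without ND replicate 1 (up to 0.75). Hibadh turned to -0.40 with array weights and -0.71 without ND replicate 1 (up to 1.14), and Bckdk to -0.094 without it (up to 1.28). Acadsb turned to 0.0061 and 0.0099 with pseudocounts of 0.1 and 0.01 and ran from -1.25 to 0.71 with 1 library left out, and Pcca from -0.76 to 0.46. Without ND replicate 1 and with median-of-ratios scaling, the replicate block and no length trend, the values were -1.06, -1.13 and -0.96 for Bckdhb, -1.22, -1.12 and -1.23 for Dbt, -0.16, -0.14 and -0.16 for Bckdk, and -0.78, -0.72 and -0.73 for Hibadh. The array weights did not reach full convergence. Causes of these shifts were not tested. Depth is known only as an estimate.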
